A study of Mus musculus with 6 samples.

Results

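Genes of the secretory granule and of its exocytosis were compared between islets of mice that carry or lack Paupar, which encodes a long noncoding RNA and neighbours Pax6. The members are 41 gene symbols listed by function (granins and other granule proteins, synaptotagmins, SNARE proteins, priming factors and Rab proteins of secretory granules), and all 41 were found among the 53670 genes of the count table. The list was set by gene name and not by any measured value, though earlier results of these data were known. Islets, the hormone-secreting cell clusters of the pancreas, were isolated with collagenase from 6-week-old mice, with 3 libraries labelled Paupar +/+ (WT) and 3 labelled Paupar -/- (KO). No other allele, treatment or sex is given in the labels, and the 2 groups share age and tissue. The labels do not say whether each replicate is its own animal, and p-values therefore reflect only how these samples vary, which may be technical.

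Endocrine cells store peptide hormones in dense-core granules. Granins help load and condense the granule content, Rab proteins and their effectors bring granules to the plasma membrane, and priming factors ready the SNARE proteins there. A calcium signal read by synaptotagmins and related sensors then lets the SNAREs fuse the granule with the membrane, after which NSF and its adaptor take the SNARE complex apart for reuse. In beta cells this chain follows glucose metabolism and releases insulin, and alpha and delta cells use largely the same machinery for glucagon and somatostatin.

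Many granule genes carry a cyclic AMP response element (CRE), the binding motif of CREB-family factors, close to their start. The sequences below are shown because chromogranin A, chromogranin B and secretogranin II are well known such genes and are among the 4 members of highest level here, while Rab3a is one of the members whose WT and KO libraries did not overlap. Promoters were taken from RefSeq (GRCm38.p6, 250 bases before to 50 after each start) and matched 31 of the 41 members by symbol. Each line gives the 150 bases before the start on the gene's own strand, 5′ to 3′, and capitals mark the match to TGACGTNA or its reverse complement, where N is any base.
Chga, chr12:102554791-102554940, plus strand: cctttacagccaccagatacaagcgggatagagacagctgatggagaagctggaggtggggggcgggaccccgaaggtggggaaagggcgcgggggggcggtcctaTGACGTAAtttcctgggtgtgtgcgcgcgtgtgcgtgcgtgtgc
Chgb, chr2:132781492-132781641, plus strand: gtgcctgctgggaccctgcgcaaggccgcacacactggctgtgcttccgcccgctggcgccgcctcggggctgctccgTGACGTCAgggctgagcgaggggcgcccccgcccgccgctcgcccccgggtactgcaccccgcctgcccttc
Scg2, chr1:79440027-79440176, minus strand: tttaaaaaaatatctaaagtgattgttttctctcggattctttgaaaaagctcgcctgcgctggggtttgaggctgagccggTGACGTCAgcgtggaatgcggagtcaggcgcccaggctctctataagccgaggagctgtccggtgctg
Rab3a, chr8:70754553-70754702, plus strand: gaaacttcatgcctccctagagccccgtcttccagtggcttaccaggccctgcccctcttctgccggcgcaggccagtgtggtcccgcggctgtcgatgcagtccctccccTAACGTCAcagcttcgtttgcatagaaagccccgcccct
The match begins 44 bases before the start in Chga, 72 in Chgb, 68 in Scg2 and 39 in Rab3a, and in Rab3a it lies on the opposite strand. A second promoter listed for Rab3a held no match. Searched on both strands of the full 300 bases, TGACGTNA was found in 5 of the 31 matched genes, these 4 and Napa. By promoter that was 5 of 35, beside 2.93% of all 32851 promoters. Its palindromic form TGACGTCA, which is one case of TGACGTNA, was found in Chgb, Scg2 and Napa (3 of the 35 promoters) and in 1.79% of all promoters. A match describes the letters only and says nothing about whether a factor binds there.

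Depth was alike across libraries, at 25733194 to 27285009 counts, and the least abundant member, Rims1, still had 12 counts or more in each. Paupar itself had 111 to 252 counts in the WT libraries and 0 to 4 in the KO libraries. Sex-linked transcripts set KO replicate 1 apart from KO replicates 2 and 3: Xist had 0 counts in KO replicate 1, 1120 and 862 in the other two, and 1 to 6 in WT, while the Y-linked Ddx3y had 1693, 2 and 0 in KO and 1316 to 1830 in WT. KO replicates 2 and 3 thus differed from the other 4 libraries in sex-linked transcripts. In KO against WT over all 6 libraries, differences by genotype and by sex therefore cannot be told apart. Values for KO replicate 1 alone against WT are given beside several results. Libraries of the same genotype differed by far more than counting noise (chi-square divided by its degrees of freedom, 27.3 to 90.4). Summed markers of beta cells lay at 277940 to 286060 CPM (counts scaled to library size by TMM) in KO and at 215410 to 234220 CPM in WT. These groups did not overlap (8 markers, 2 with estimates below zero, none at 0). Alpha markers overlapped, at 35205 to 45523 CPM in WT and 31838 to 36957 CPM in KO (6 markers, 5 below zero). Delta markers did too, at 2552 to 4172 CPM in WT and 2205 to 3933 CPM in KO (4 markers, 4 below zero). Acinar cells have zymogen granules that use several of the same genes. Their summed markers overlapped between groups at 24970 to 78756 CPM in WT and 18421 to 48505 CPM in KO. Of the 18 markers 17 were in the table, 16 with estimates below zero and none at 0. In bulk islets, fewer cells of a type and less RNA per cell cannot be told apart.

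None of the 41 members passed the test of KO against WT over all genes. All 41 were among the 15915 tested genes, and edgeR's quasi-likelihood test with Benjamini-Hochberg adjustment called 0 of them at an adjusted p below 0.05, against 0.170% of all tested genes. The smallest adjusted p of a member was 0.151, for Unc13b. At an unadjusted p below 0.05 there were 3 members higher in KO (against 6.99% of all tested genes) and 4 lower (against 9.38%). Together that was 17.1% of members, against 16.4% of all tested genes. DESeq2, run as an alternative, called Vamp3 higher (adjusted p = 0.0304) and Unc13b lower (adjusted p = 0.04999), with 4.81% of its genes called, and gave no adjusted p for Rims1 and Cplx1. The estimates were balanced, with 21 members above and 20 below no change and a median log2 fold change (KO over WT) of 0.013, beside 0.0023 for all tested genes. In 4 members each KO library was above each WT library (9.76% of members, against 11.3% of all tested genes) and in 4 each KO library was below (9.76%, against 12.1%), so such separations were about as common here as elsewhere. For 38 members the 95% interval of the fold change lay within 2-fold in either direction, and for 29 it lay within 1.5-fold. The other 3 were Vgf, Doc2b and Cplx1.

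**Figure D1:**
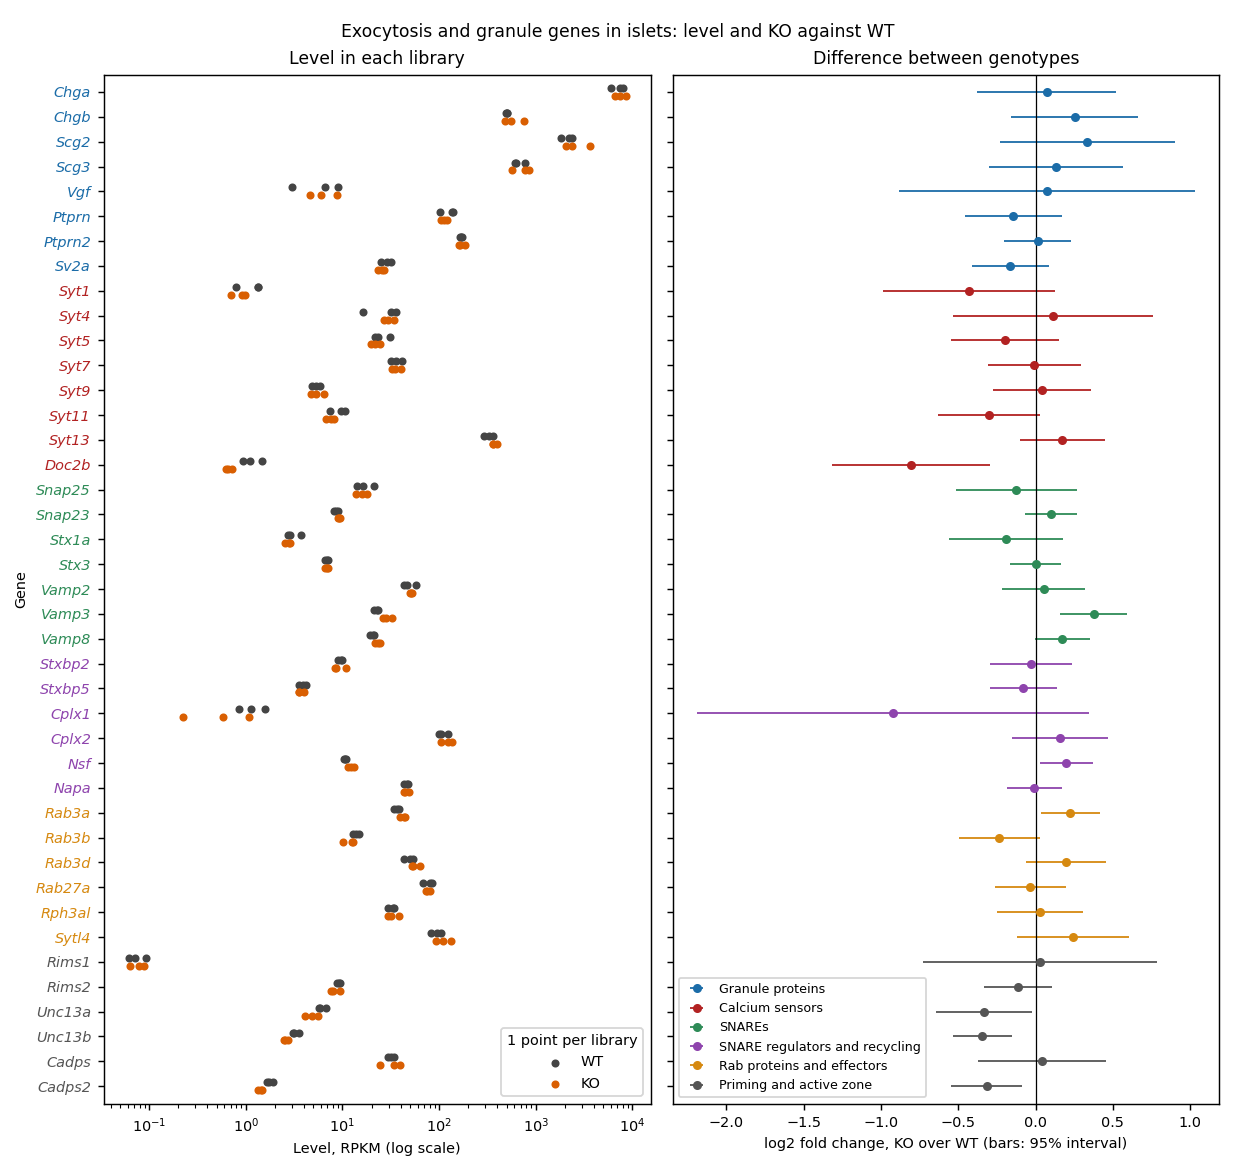
The left panel plots the level of each member in RPKM (CPM per kilobase of exon, log axis) with 1 point per library, WT in grey and KO in orange, and the right panel plots the log2 fold change of KO over WT with its 95% interval, coloured by role. Chga, Scg2 and Scg3 lead the levels and Rims1 is last, and most intervals cross the zero line.

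Granule proteins made up most of the members' RNA. The 41 members together took 2.86 ± 0.248% of all counts in WT and 2.98 ± 0.0551% in KO (SD, n = 3), and 4 granins (Chga, Chgb, Scg2 and Scg3) took 2.23 ± 0.221% and 2.36 ± 0.018% of that same total. Per exonic length, in RPKM (CPM per kilobase of exon), the order of mean levels over the 6 libraries was Chga (7372 RPKM), Scg2 (2423), Scg3 (702.2) and Chgb (550.02), followed by the synaptotagmin Syt13 (350.9). The next were the granule membrane phosphatase-like proteins Ptprn2 (169.4 RPKM) and Ptprn (119.2), known as autoantigens of type 1 diabetes.

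Chga, the most abundant, encodes chromogranin A, which condenses granule cargo and is cut into peptides. Its TMM-scaled level was 11339, 15130 and 14112 CPM in WT replicates 1 to 3 and 12391, 16083 and 14184 CPM in KO replicates 1 to 3. Both genotypes held replicate 1 as their lowest library, and the groups overlapped (log2 fold change 0.07, SE 0.19, adjusted p = 0.886). Scg2, the secretogranin II precursor of secretoneurin, stood at 5909, 4517 and 5554 CPM in WT and at 9036, 5157 and 5958 CPM in KO. KO replicate 1 was well above the other 5 libraries (0.33, SE 0.24, adjusted p = 0.533). Without that library the log2 fold change of Scg2 was 0.06, and with KO replicate 1 as the only KO library it was 0.76. Chgb, which encodes chromogranin B, had a narrow WT range of 1344, 1398 and 1384 CPM and a wider KO range of 1310, 1534 and 2072 CPM (0.25, SE 0.17, adjusted p = 0.517). Here KO replicate 3 was the high one, and KO replicate 1 was below all WT libraries. Without KO replicate 3 the log2 fold change of Chgb was 0.048, so each of these estimates turned on 1 KO library, a different one for each gene.

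The remaining granule proteins had overlapping groups too. Scg3, a granule membrane adaptor of chromogranin A, averaged 1509 ± 203.3 CPM in WT and 1650 ± 344.7 in KO (0.13, SE 0.18). Ptprn was at 443 ± 69.5 and 400.5 ± 30.3 CPM (-0.14, SE 0.13) and Ptprn2 at 879 ± 29.0 and 886 ± 62.9 CPM (0.01, SE 0.09). Ptprn2 thus had one of the tighter estimates, with a 95% interval of -0.21 to 0.23. Sv2a, a vesicle membrane protein that binds synaptotagmin, was at 134, 115 and 147 CPM in WT and 126, 118 and 109 CPM in KO (-0.16, SE 0.10, adjusted p = 0.490), again with overlap. Vgf, the precursor of several neuroendocrine peptides, was sparse for a granule cargo gene (6.36 RPKM) and the least even of this group. Its WT libraries held 17.0, 22.8 and 7.64 CPM, a 2.99-fold range within 1 genotype, and the KO libraries 22.65, 15.35 and 11.92 CPM (0.07, SE 0.40). The interval for Vgf, -0.88 to 1.03, was accordingly among the widest of the members.

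**Figure D2:**
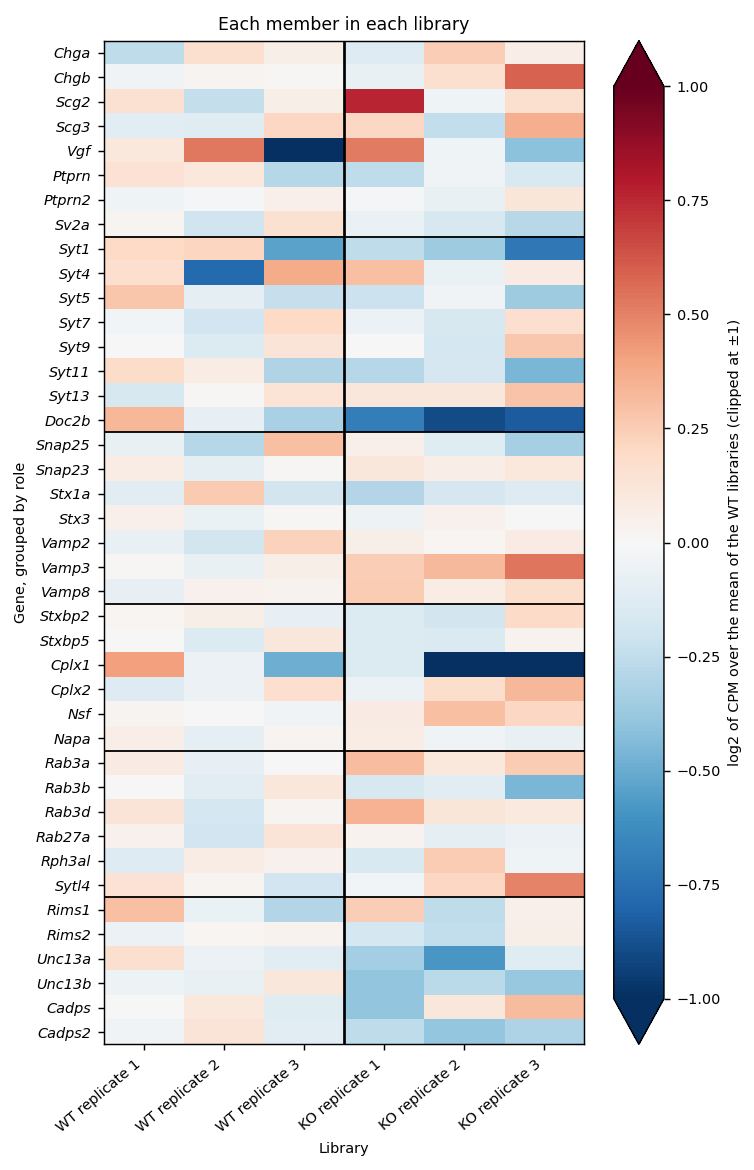
Each cell is the log2 ratio of a member's CPM in a library (columns) to the mean of the 3 WT libraries, clipped at ±1, with members in rows by role. Scg2 in KO replicate 1, Vgf in WT replicate 3 and Syt4 in WT replicate 2 stand out as single-library deviations, while Doc2b, Unc13b and Cadps2 are lower in each KO library.

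Among calcium sensors the mean levels ran from 0.922 RPKM for Doc2b to 350.9 for Syt13. Syt13, an atypical synaptotagmin that does not bind calcium and is linked to endocrine differentiation, was at 1109, 1248 and 1365 CPM in WT and 1345, 1344 and 1508 CPM in KO. KO replicates 1 and 2 lay near the top of the WT range and KO replicate 3 above it, so the groups overlapped (0.17, SE 0.12, adjusted p = 0.508). Syt7, the high-affinity sensor known to support insulin and glucagon release, was at 247, 221 and 289 CPM in WT and 243, 227 and 284 CPM in KO, nearly the same 3 values (-0.01, SE 0.13, adjusted p = 0.984). Its 95% interval ran from -0.31 to 0.30.

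Doc2b had the second largest negative estimate of all members. It encodes a double C2-domain protein that binds the SNARE machinery at low calcium and is known to promote insulin secretion (chromosome 11, 75582468 to 75609551 in mm9, minus strand). WT libraries held 172, 130 and 110 counts and KO libraries 83, 72 and 76, which is 6.43, 4.83 and 4.08 CPM against 3.16, 2.75 and 2.87 CPM. Each KO library was below each WT library, with a much narrower spread in KO, and KO over WT was -0.81 on the log2 scale (SE 0.22, 95% interval -1.32 to -0.30). It did not pass (edgeR adjusted p = 0.173, DESeq2 adjusted p = 0.0582). Over all alternatives the estimate ran from -0.93 to -0.60, and with KO replicate 1 as the only KO library it was -0.69. Because the groups did not overlap, its sign was nearly fixed in advance wherever libraries were left out. Of its exonic bases, 5.53% overlap an antisense gene, whose reads cannot be told apart without strand.

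Syt1, Syt5 and Syt11 also had negative estimates, with overlapping groups. Syt11, another family member without calcium-dependent membrane binding, was at 55.2, 51.1 and 39.4 CPM in WT and 39.9, 43.2 and 35.4 CPM in KO (-0.30, SE 0.14, adjusted p = 0.346). WT replicate 3 was the library that reached into the KO range. Syt1, the fast sensor of neurons, averaged 9.68 ± 2.61 CPM in WT and 7.18 ± 1.16 in KO (-0.43, SE 0.23, adjusted p = 0.416), and again WT replicate 3, at 6.67 CPM, was the low WT library. Syt5 stood at 44.2 ± 8.38 and 38.5 ± 4.27 CPM (-0.20, SE 0.15). Syt9, a sensor found on insulin granules, was at 21.3 ± 1.95 and 21.9 ± 3.42 CPM (0.04, SE 0.13). Syt4, which lowers the calcium sensitivity of release as beta cells mature, varied most within WT, at 123, 63.9 and 141 CPM, beside 134, 104 and 116 CPM in KO (0.11, SE 0.27). Antisense exons cover 14.7% of the exonic bases of Syt4 and 5.51% of those of Syt7.

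The SNARE genes were among the steadiest members, with a median SE of 0.092 against 0.149 over all tested genes. Vamp2, the granule-side SNARE of insulin secretion, was at 178, 165 and 220.4 CPM in WT and 195, 190 and 199 CPM in KO. The KO libraries lay inside the WT range (0.05, SE 0.11, adjusted p = 0.858). Stx3, a plasma and granule membrane syntaxin, averaged 34.4 ± 1.39 CPM in WT and 34.3 ± 1.05 in KO, with a 95% interval of -0.16 to 0.16 on the log2 scale. Snap23, the widely expressed relative of Snap25, had an interval of -0.07 to 0.26 (36.96 ± 2.099 and 39.5 ± 0.721 CPM). Snap25, the target SNARE of neurons and endocrine cells, averaged 118 ± 24.9 CPM in WT and 107.9 ± 14.04 in KO (-0.13, SE 0.16). Stx1a, its partner in the plasma membrane, had the lowest level of the SNARE genes, at 8.31 ± 1.44 and 7.27 ± 0.439 CPM (-0.19, SE 0.16).

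Vamp3 and Vamp8 had every KO library above all WT libraries. Vamp3, or cellubrevin, serves recycling endosomes and can replace Vamp2 in insulin release (chromosome 4, 150421409 to 150432072, minus strand). It was at 65.3, 61.5 and 67.7 CPM in WT and at 76.8, 81.2 and 94.1 CPM in KO, with no overlap and KO replicate 3 highest. Its log2 fold change of 0.37 (SE 0.09, 95% interval 0.16 to 0.59) was the highest of all members, a level 29.6% above WT, and had an adjusted p of 0.159 in edgeR. Vamp8, or endobrevin, acts in endosomes and in exocytosis of zymogen granules of acinar cells (chromosome 6, 72335217 to 72340697, minus strand). Its values were 44.6, 48.7 and 48.4 CPM in WT and 56.3, 49.8 and 53.4 CPM in KO, so KO replicate 2 came close to the upper WT libraries (0.17, SE 0.08, adjusted p = 0.324). Summed acinar markers overlapped between the groups (above), though 16 of 17 had estimates below zero. With the summed level as a covariate the estimates were 0.32 for Vamp3 and 0.16 for Vamp8. Taken with KO replicate 1 as the only KO library, they were 0.24 and 0.25.

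Genes that clamp, chaperone or recycle the SNARE complex had estimates on both sides of zero. Cplx2, the main islet complexin, was at 492, 518 and 606 CPM in WT and 518, 607 and 677 CPM in KO (0.16, SE 0.13, adjusted p = 0.596), with overlapping groups. Cplx1, the complexin better known from brain, was almost absent by comparison, at 3.44, 2.49 and 1.85 CPM in WT and 2.36, 1.26 and 0.490 CPM in KO. Only 13 counts lay in KO replicate 3 and 92 in WT replicate 1, and the estimate of -0.92 had the largest SE of all members (0.54, adjusted p = 0.446). With KO replicate 1 alone the log2 fold change of Cplx1 was -0.14, so the estimate came from KO replicates 2 and 3.

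Nsf, the ATPase that separates used SNARE complexes, was at 91.1, 89.6 and 87.0 CPM in WT and 94.4, 109.6 and 103.1 CPM in KO (chromosome 11, 103683096 to 103815370, minus strand). All KO libraries were above all WT libraries, 0.20 higher on the log2 scale (SE 0.07, adjusted p = 0.262). That of KO replicate 1 alone was 0.08. Its adaptor alpha-SNAP, encoded by Napa, was at 182, 162 and 177 CPM in WT and 183, 170 and 165 CPM in KO (-0.01, SE 0.08, adjusted p = 0.968). In this pair the groups were thus separated for Nsf and overlapped for Napa. Stxbp2, the Munc18 protein that works with Stx3, had means of 39.2 ± 1.96 and 38.4 ± 5.63 CPM (-0.03, SE 0.11), and Stxbp5, the SNARE inhibitor tomosyn, 50.7 ± 4.35 and 48.0 ± 3.46 CPM (-0.08, SE 0.09).

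Rab proteins and their effectors had a median log2 fold change of 0.11, with 4 of 6 estimates above zero, and of 0.0053 with KO replicate 1 as the only KO library. Sytl4, or granuphilin, which docks insulin granules, was at 533, 494 and 423 CPM in WT and 474, 557 and 681 CPM in KO (0.24, SE 0.15, adjusted p = 0.487). The gene is on the X chromosome, and only KO replicates 2 and 3, the libraries with Xist, were above every WT library. The autosomal Chgb, Cplx2 and Cadps had that same pattern, and the part of sex in it was not tested. For KO replicate 1 alone the log2 fold change of Sytl4 was -0.03. Rab27a, the GTPase that granuphilin binds, was at 239, 203 and 253 CPM in WT and 238, 218 and 223 CPM in KO (-0.04, SE 0.10, adjusted p = 0.890).

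Rab3a, a GTPase of docked vesicles needed for normal insulin secretion, was at 85.3, 76.1 and 80.8 CPM in WT and 100.03, 86.8 and 96.2 CPM in KO (chromosome 8, 73278578 to 73282576, plus strand). Each KO library exceeded each WT library, though KO replicate 2 only by a little (0.23, SE 0.08, adjusted p = 0.248), and the value for KO replicate 1 alone was 0.31. Rab3b had the opposite sign, with 48.6, 45.0 and 52.8 CPM in WT and 43.8, 45.03 and 35.6 CPM in KO (-0.23, SE 0.11, adjusted p = 0.353). KO replicates 1 and 2 lay beside the lowest WT library and KO replicate 3 below it, and 8.995% of its exonic bases overlap an antisense gene. Rab3d, the family member of acinar zymogen granules that islets also express, was at 207 ± 22.1 and 237 ± 23.1 CPM (0.19, SE 0.11, adjusted p = 0.430). Rph3al, or Noc2, an effector of Rab3 and Rab27 needed for normal release, was at 124 ± 9.44 and 127 ± 18.7 CPM (0.03, SE 0.12).

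The median of the priming and active zone genes was -0.22 on the log2 scale. Of the 4 members with each KO library below each WT library, 3 were among these 6 genes (50%, against 12.1% of all tested genes). All 3 are long, and long genes had a lower median over all tested genes (below). The share among genes of like length is not given here. Unc13b encodes Munc13-2, which opens syntaxin for SNARE assembly (chromosome 4, 43071825 to 43277745, plus strand). It was at 42.8, 42.0 and 48.0 CPM in WT and 33.8, 36.8 and 34.0 CPM in KO, a clear gap between the groups. The log2 fold change of -0.35 (SE 0.08, 95% interval -0.54 to -0.15) puts KO 21.3% below WT, with the smallest p of all members. Unc13a encodes Munc13-1, the isoform whose loss is known to reduce insulin secretion (chromosome 8, 74150614 to 74195656, minus strand). Its libraries held 58.55, 50.45 and 48.48 CPM in WT and 41.41, 35.13 and 48.27 CPM in KO, so KO replicate 3 all but touched WT replicate 3 (-0.34, SE 0.13, adjusted p = 0.282). Cadps2, one of 2 CAPS proteins that prime dense-core granules (chromosome 6, 23212773 to 23789421, minus strand), was at 17.1, 19.15 and 16.31 CPM in WT and 14.65, 13.37 and 14.14 CPM in KO. That too was a separation in every library (-0.32, SE 0.10, adjusted p = 0.209). Taken with KO replicate 1 as the only KO library, the values were -0.39 for Unc13b, -0.34 for Unc13a and -0.26 for Cadps2.

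The other CAPS gene, Cadps, is the abundant one in islets and did not share this pattern. It stood at 178, 190 and 162 CPM in WT and at 135, 191 and 220 CPM in KO, with KO replicate 1 lowest and KO replicate 3 highest of all 6 (0.04, SE 0.17, adjusted p = 0.930). With KO replicate 1 as the only KO library its log2 fold change was -0.39. Rims2, the active zone scaffold that links Rab3 to calcium channels in beta cells, was at 47.25, 49.82 and 50.52 CPM in WT and 43.5, 41.6 and 51.1 CPM in KO (-0.12, SE 0.09, adjusted p = 0.583), where KO replicate 3 was the top library. Rims1, its brain relative, had 12 to 18 counts per library and the lowest level of all members (0.076 RPKM).

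**Figure D3:**
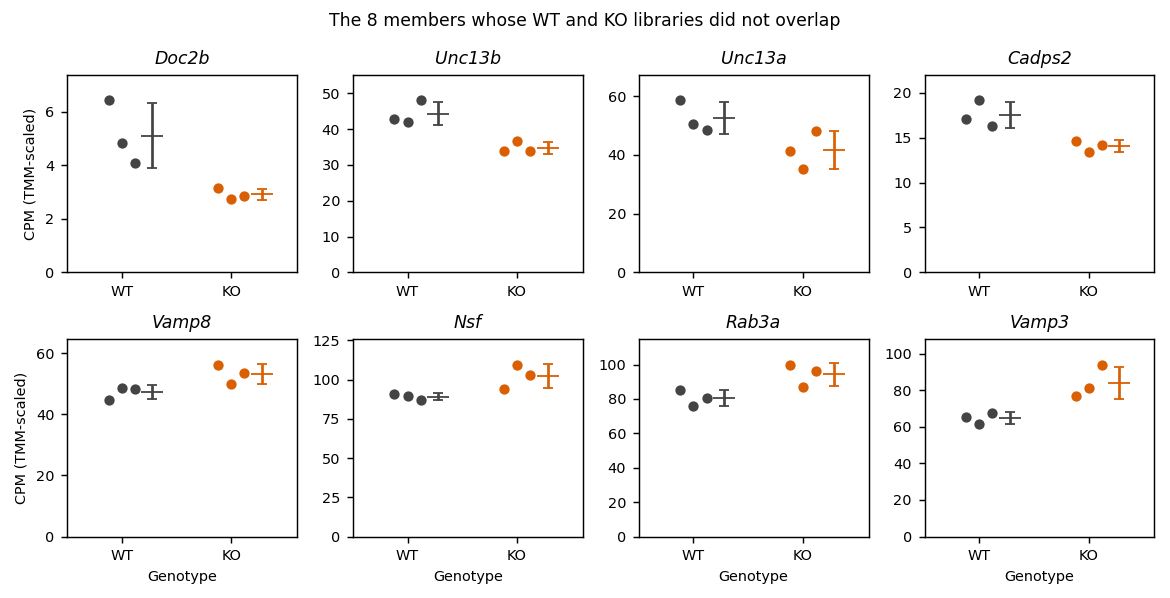
Each panel shows 1 of the 8 members whose WT and KO libraries did not overlap, as CPM on an axis from 0, with 1 point per library and the mean ± SD of 3 libraries beside it. The gaps are small against the levels in Unc13a, Vamp8 and Rab3a and wider in Doc2b, Unc13b and Vamp3.

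Exonic length and genotype moved together in these libraries, and priming genes are long. Over 14802 tested genes with a known length, the median log2 fold change went from 0.092 in the shortest of 5 equal classes to -0.099 in the longest. The 9 members in the longest class had a median of -0.13, with 7 of 9 estimates negative, and Unc13a (8565 bp), Unc13b (13507 bp) and Cadps2 (9907 bp) were among them. Nsf (8346 bp) was the exception among the separated genes of that class. Across the 41 members the Spearman correlation of fold change with exonic length was -0.32, beside -0.23 over all tested genes with a length (genes share libraries and are not replicates). When each library was first adjusted smoothly for length and GC content of exons, the log2 fold change was -0.16 for Unc13a, -0.22 for Unc13b, -0.26 for Cadps2, -0.72 for Doc2b and 0.29 for Vamp3. The median of the priming genes was then -0.12.

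**Figure D4:**
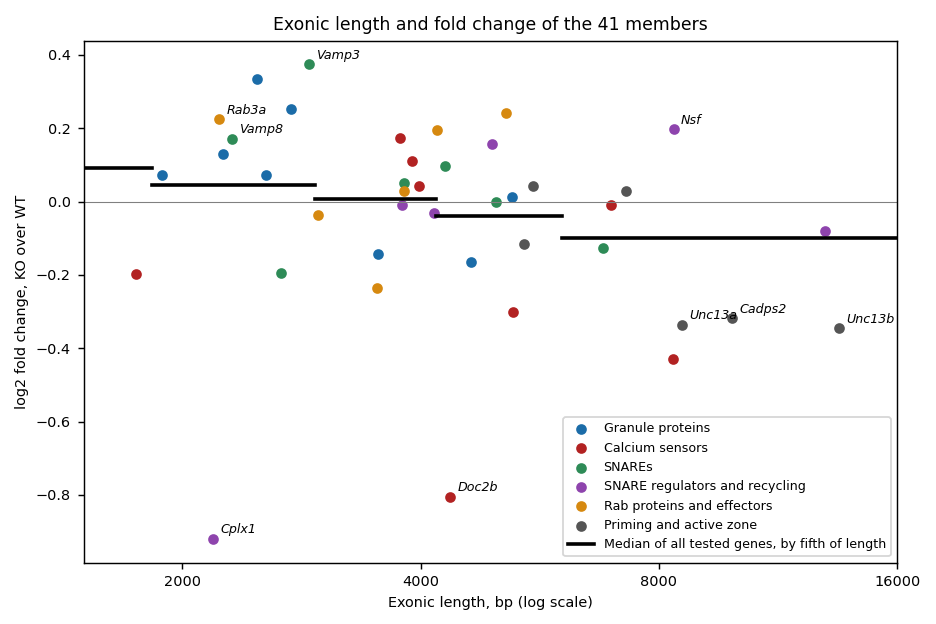
Each point is a member, placed by exonic length (log axis, bp) and log2 fold change of KO over WT and coloured by role, and black lines are the medians of all tested genes in 5 classes of length. Unc13a, Unc13b and Cadps2 lie below the line of their class, Doc2b and Cplx1 lie low at moderate or short length, and Vamp3 and Rab3a lie above theirs.

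Ratios of related genes within a library are free of the scaling between libraries and show which paralog dominates. Counts of Vamp2 were 2.73, 2.68 and 3.26 times those of Vamp3 in WT and 2.54, 2.34 and 2.11 times in KO, lower in each KO library (mean log2 ratio 1.53 ± 0.155 and 1.22 ± 0.133). Counts of Rab3a were 1.76, 1.69 and 1.53 times those of Rab3b in WT and 2.29, 1.93 and 2.70 times in KO, higher in each KO library (0.728 ± 0.103 and 1.19 ± 0.243). These were the 2 of 13 pairs without overlap, both at an exact two-sided permutation p of 0.1, the smallest that 3 against 3 libraries can give (0.65 after Benjamini-Hochberg adjustment over the 13 pairs). Unc13a and Unc13b had a mean log2 ratio of 0.243 ± 0.22 in WT libraries and 0.245 ± 0.289 in KO libraries (exact permutation p = 1), with both genes lower in each KO library.

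Several pairs were lopsided in both genotypes. Cadps outnumbered Cadps2 by 18.1-fold per exonic length in WT and 22.7-fold in KO, and the ratio in KO spanned 9.19 to 15.6 in counts. Syt7 exceeded Syt9 by 6.75-fold per length in WT and 6.57-fold in KO, with little spread (SD of the log2 ratio 0.0638 and 0.0575). Per length, Snap25 was at 1.99 times the level of Snap23 in WT and 1.72 times in KO, and Vamp2 at 2.40 and 2.22 times that of Vamp8. Stx1a had 0.448 times the level of Stx3 in WT and 0.395 times in KO, an order in which the widely expressed syntaxin leads. Complexin reads were nearly all Cplx2, with Cplx1 at 0.0105 times its level per length in WT and 0.00427 times in KO.

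**Figure D5:**
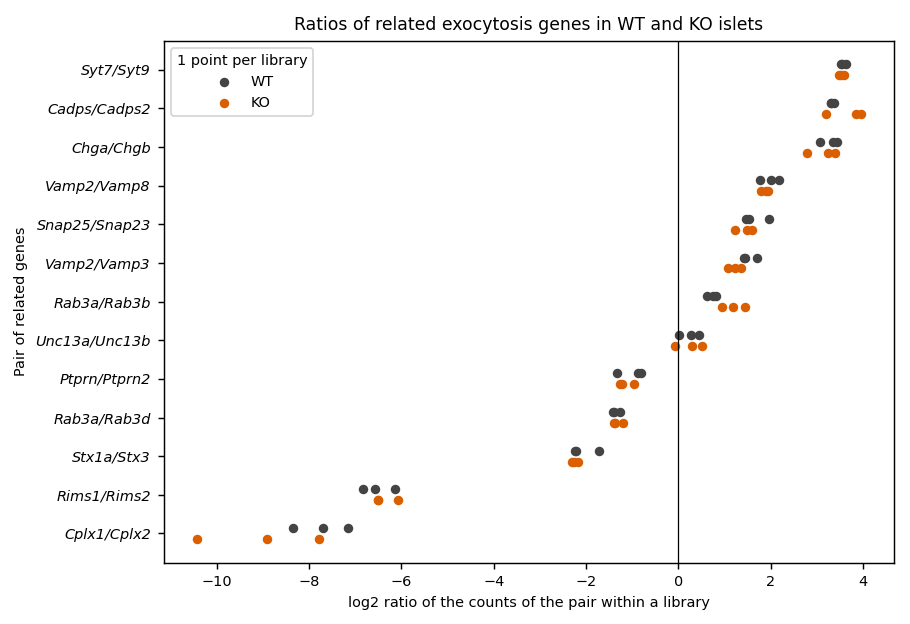
The log2 ratio of the counts of 13 pairs of related genes is plotted for each library, WT in grey and KO in orange. Rab3a/Rab3b and Vamp2/Vamp3 are the pairs whose libraries separate by genotype, and Cplx1/Cplx2 is spread widest within KO.

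Beyond the members, 106 of 115 other genes of the same machinery were tested, and edgeR called none at an adjusted p below 0.05. At an unadjusted p below 0.05 there were 19 higher and 9 lower, together 26.4% of the 106, against 16.4% of all tested genes. By direction, 6.99% of all tested genes were higher and 9.38% lower at that threshold. The median log2 fold change of the 106 genes was 0.034, with 58 estimates above zero. In 22 of them (20.8%, against 11.3% of all tested genes) each KO library was above each WT library, and in 12 (11.3%, against 12.1%) below. Pclo and Bsn, which encode active zone scaffolds, had the smallest p, followed by Syt6 and Atp6ap2 (below). Pclo, which encodes Piccolo, averaged 194 ± 20.5 CPM in WT and 132 ± 10.2 in KO (-0.56, SE 0.10, adjusted p = 0.102). Bsn, which encodes its relative Bassoon, was at 28.6 ± 3.10 and 18.6 ± 1.61 CPM (-0.62, SE 0.11, adjusted p = 0.104). These are very long genes (20439 and 15937 bp of exon, of which antisense exons cover 11.38% in Bsn), and with the length and GC offsets the log2 fold changes were -0.35 and -0.28. Ppfia1, a liprin of the same sites, came next by p and was at -0.24 (SE 0.07). Among the other scaffolds and liprins listed, Ppfia2 (-0.49) and Ppfia3 (-0.35) were lower in each KO library. Groups overlapped for Erc1 (-0.14), Erc2 (-0.04), Rimbp2 (-0.19) and Ppfia4 (0.03).

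Among sensors outside the members, Syt6 (-1.40, SE 0.30, adjusted p = 0.135) and Syt16 (-0.65, SE 0.19, adjusted p = 0.194) were lower in each KO library, at 2.91 ± 0.234 against 1.10 ± 0.379 CPM for Syt6. Antisense exons cover 8.72% of the exonic bases of Syt6. Atp6ap2, an accessory subunit of the proton pump that acidifies granules, was higher in each KO library, at 307 ± 25.5 CPM in WT and 385 ± 17.2 in KO (0.32, SE 0.09, adjusted p = 0.176). The gene is on the X chromosome, and with KO replicate 1 as the only KO library its log2 fold change was 0.28. With the length and GC offsets that of Atp6ap2 was 0.17. DESeq2 called Pclo, Bsn and Atp6ap2 of these.

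Markers of other cell types that express exocytosis genes differed in part between the groups. The Schwann cell and neuron list summed to 106.8 to 110.9 CPM in WT and 86.4 to 93.0 CPM in KO, without overlap (8 markers, 6 of 7 tested ones below zero, none at 0 in any library). The endothelial list summed to 361 to 452 CPM in WT and 516 to 542 CPM in KO, also without overlap (7 markers, none at 0). Macrophage markers overlapped, at 48.0 to 113.6 and 51.2 to 165.2 CPM (6 of 7 markers in the table), as did duct markers. The part of these cells in the values of the members was not tested.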

How the data were processed

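The authors deposited 1 table of raw read counts per gene, not normalized, with 1 column per library, and 0 columns were left unmatched to a sample. Per the submitters' processing notes, CASAVA 1.8.2, HISAT2 2.1.0, HTSeq and DESeq2 were used with the mouse build mm9. For the annotation, the counting options and the use of strand, the sources used here give nothing, and a gene cannot be separated from an antisense partner without strand.

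Counts were fitted in edgeR 4.0.16 (R 4.3.3): filterByExpr by genotype left 15915 genes, libraries were scaled by TMM (factors 0.964 to 1.049), and KO was tested against WT by the quasi-likelihood F-test, with Benjamini-Hochberg adjustment over all tested genes and a threshold of 0.05. Intervals of fold changes are 95% and cover the spread between libraries. The method was tested on simulated data. Levels are TMM-scaled CPM (mean ± SD, 3 libraries), and RPKM divides them by exonic length (GENCODE vM1, mm9, matched for 93.0% of tested genes). Coordinates of genes are mm9 and promoters GRCm38.p6. Ratios of paralogs were compared by exact permutation tests (scipy 1.17.1).

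The members, the other lists, the pairs, the tests and the alternatives were chosen with earlier results of these data known. Values by library are given, in each role, for the 2 members with the highest level per length and the 2 with the smallest p. Of the other pathway genes the 6 with the smallest p among those with separated groups and a mean of at least 1 CPM are named. Vgf, Syt4, Unc13a and single values of Syt1 were added after their values were seen. Stx4 of the pathway list was read under its older symbol, Stx4a. Alternatives were DESeq2 size factors within edgeR, no low-count filter, DESeq2 1.42.0, the replicate number as a block, length and GC offsets, an acinar covariate, leaving out each library, and KO replicate 1 alone against WT.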

Additional observations from a re-analysis of the deposited data

How the results depend on the processing

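Of the 41 members, 21 kept their direction in all 13 alternatives, a count not given here for all tested genes. The 8 with separated groups were among them. Their sign was nearly fixed in advance wherever a library was left out or KO replicate 1 stood alone. No alternative but DESeq2 called a member: it called 1 member lower and 1 higher, and 2 other pathway genes lower and 1 higher. Over all genes, 27 were called lower and 0 higher. DESeq2 gave 392 lower and 164 higher, and leaving out 1 library gave 0 to 80 lower and 0 to 9 higher (80 and 9 without WT replicate 3, 4 and 1 without KO replicate 1, and 0 lower without each of the other 4). With the replicate block, the length and GC offsets, the acinar covariate or KO replicate 1 alone there were 0 lower, and in the last 1 higher. Same-numbered libraries had deviations correlated at 0.19, 0.037 and 0.066, beside -0.16 to 0.068 for those with different numbers. With 3 libraries per genotype these values cannot settle whether the libraries were paired. The replicate block gave a member median of 0.011 and called no member, and not every library correlated best with its own number.

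Leaving out 1 library moved the median log2 fold change of the members between -0.032 and 0.042, of granule proteins between 0.022 and 0.12, of calcium sensors between -0.20 and -0.023, of Rab proteins and effectors between 0.080 and 0.13, of SNAREs between -0.032 and 0.11, of priming genes between -0.27 and -0.14 and of the other pathway genes between -0.0038 and 0.069. The order of the roles was not kept: without WT replicate 2 calcium sensors (-0.20) were below priming genes (-0.18), and granule proteins (0.12) above Rab proteins (0.091). With the acinar covariate the medians were -0.027 for the members, 0.024 for granule proteins and 0.0021 for SNAREs, and with the offsets -0.12 for priming genes. KO replicate 1 alone gave -0.057 for the members, -0.040 for granule proteins, -0.095 for SNARE regulators, 0.0053 for Rab proteins and effectors, -0.30 for priming genes and -0.022 for the other pathway genes. It also turned Chga to -0.13, Chgb to -0.070, Snap25 to 0.050, Rph3al to -0.15, Sytl4 to -0.026, Cplx2 to -0.057, Cadps to -0.39, Napa to 0.074, Rab27a to 0.037, Ptprn2 to -0.017 and Syt9 to -0.00073. The offsets turned Syt7 to 0.13, Napa to 0.049, Stxbp2 to 0.012, Stxbp5 to 0.0047 and Stx3 to 0.0031. Leaving out 1 library gave ranges across zero of -0.25 to 0.063 for Snap25, -0.096 to 0.11 for Rph3al, -0.25 to 0.44 for Vgf, -0.16 to 0.35 for Syt4, -0.12 to 0.22 for Cadps, -0.11 to 0.11 for Syt7, -0.085 to 0.14 for Syt9, -0.091 to 0.21 for Rims1, -0.035 to 0.19 for Vamp2, -0.16 to 0.039 for Stxbp2, -0.12 to 0.042 for Rab27a, -0.034 to 0.16 for Chga, -0.0038 to 0.29 for Scg3, -0.045 to 0.054 for Ptprn2, -0.056 to 0.030 for Napa and -0.032 to 0.032 for Stx3. Cplx1 ran from -1.56 to -0.52. The cause of these shifts was not tested. Depth limits Rims1 and Cplx1, whose libraries held as few as 12 and 13 counts.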
